A study of Mus musculus with 6 samples.

Results

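The regulators described here pattern the tail, the somites and their derivatives, and were followed in the first branchial arch of the mouse embryo, a head tissue. They are the caudal-type homeobox genes Cdx1, Cdx2 and Cdx4, the even-skipped homeobox genes Evx1 and Evx2, the somite homeobox genes Meox1, Meox2 and Uncx, and the helix-loop-helix genes Tcf15 and Scx. Members were taken by gene symbol as a check for trunk identity or trunk tissue, with earlier results of these data known, and all 10 of 10 were found among 18194 genes, on 13 of 45101 probe sets. Where a gene had several probe sets, the one brightest on average stands for it. Arches were dissected at embryonic day 11.5, with 1 arch taken per embryo, and the labels do not state whether an array held RNA of several embryos. The 3 arrays labelled control were from Ezh2lox/lox embryos and the 3 labelled mutant from Wnt1Cre Ezh2lox/lox embryos, so that both groups carried floxed Ezh2, which encodes the histone methyltransferase of Polycomb repressive complex 2 (PRC2). The Wnt1 regulatory sequence drives Cre in the neural crest lineage, whereas the skeletal muscle precursors, vessel endothelium, blood and surface epithelium of the arch arise outside it and keep the gene.

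Trunk and head mesoderm use different regulators. In the trunk, Cdx proteins act in the tail bud, where they promote axis elongation and activate Hox genes, and the mesoderm beside the neural tube is cut into somites. Tcf15 makes each somite epithelial, Meox1 and Meox2 act in the formation of sclerotome and muscle, Uncx marks the posterior part of the sclerotome, and Scx marks the tendon precursors that form next to muscle. The head mesoderm does not segment into somites, and its muscle depends on other factors such as Tbx1 and Msc. PRC2 is known to keep many genes of this kind silent where they are not used.

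Signals are on a log2 scale, on which all arrays shared a 25th percentile of 4.33, a median of 5.81 and a range of 2.63 to 14.68. Correlations between arrays were 0.995 to 0.998 within and 0.988 to 0.992 between groups. The probe set of Ezh2 read 11.52 to 11.80 in the labelled-control and 11.65 to 11.66 in the labelled-mutant arches, and since its position relative to the deleted part was not determined here it checks no label. Xist was high only in the 3 labelled-mutant arrays and the Y-linked Kdm5d, Eif2s3y and Uty only in the 3 labelled-control arrays, so that embryo sex and genotype label cannot be told apart in any result given here. Many Hox genes, which PRC2 is known to keep silent in this arch, were high in the arrays labelled control. Whether the genotype labels were exchanged was not tested, and an exchange would turn the sign of every difference given. Of the 18194 genes, 224 rose and 783 fell in the labelled-mutant arches at a Benjamini-Hochberg adjusted p of 0.05 (limma). Markers of arch crest mesenchyme such as Prrx1 (12.23 to 12.64) and Twist1 (11.10 to 11.52) gave high signals in both groups. All 10 were above the 25th percentile on every array, but Alx4 (4.94 to 5.17) was below the median on all 6. Differences below are labelled mutant minus labelled control, levels are mean ± SD (n = 3 arrays), and ± is not used for standard errors. With 3 arrays against 3, an exact two-sided permutation test cannot go below p = 0.1, so that single genes were tested only in the fit across all genes.

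Of the 10 regulators, 2 fell and 0 rose in the labelled-mutant arches, which is 20% of them against 5.53% of all genes tested (1.23% rose and 4.30% fell). Meox1 fell 2.54-fold and Scx fell 1.33-fold, both with signals above the array median on all 6 arrays. Meox2 was lower by the same factor as Meox1 with a wider spread between arches and did not pass. The Cdx genes, Evx1 and Uncx lay below the array median on every array and did not pass, nor did Evx2 and Tcf15. At an unadjusted p of 0.05, 4 of the 10 passed, the others being Meox2 and Cdx2, against 18.7% of all genes. Fitted over all 45101 probe sets, 1 of the 13 passed (Meox1), against 2.14% of all. The median difference over the 10 was -0.04, beside 0.02 over all genes, with 5 genes higher and 5 lower in mean. The groups did not overlap for 5 of the 10 (Cdx2, Evx1, Meox1, Meox2 and Scx), against 24.9% of all genes.

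**Figure D1:**
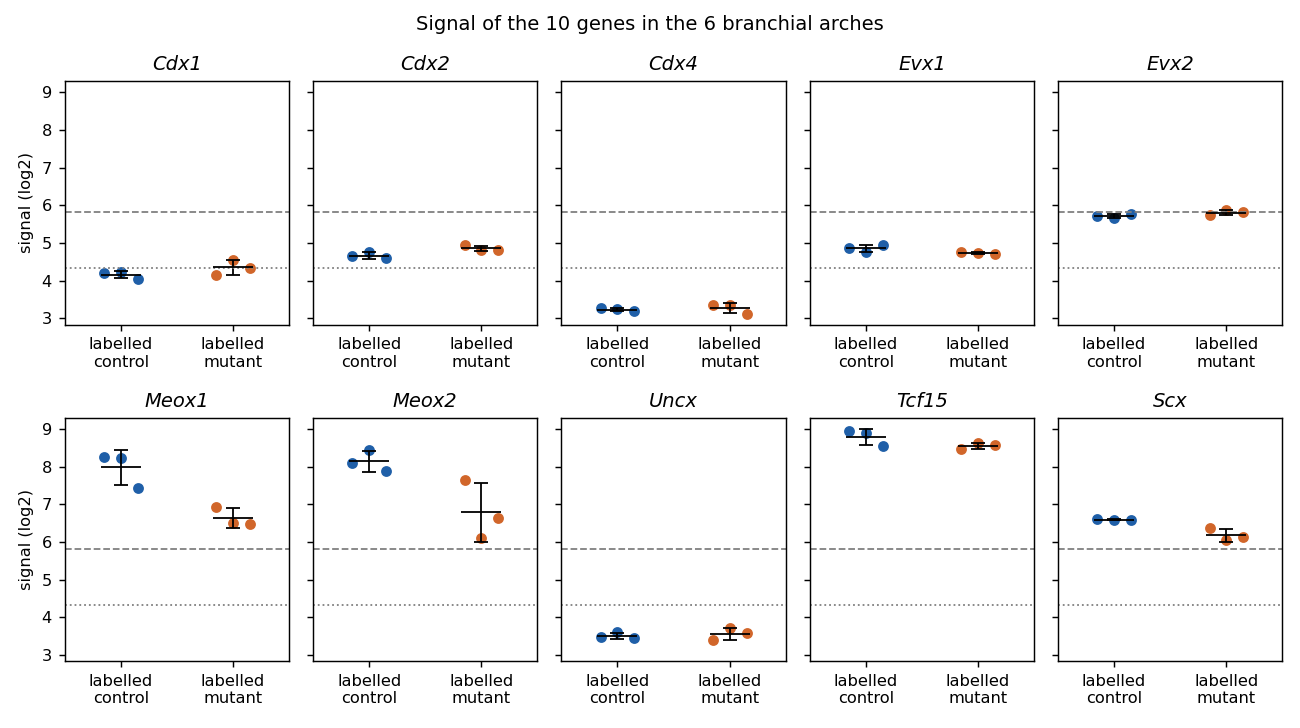
Signal of each of the 10 genes in each arch (log2; 1 point per array), with mean and SD of the 3 labelled-control (blue) and 3 labelled-mutant (orange) arrays; the dotted and dashed lines are the 25th percentile (4.33) and the median (5.81) of the arrays. Meox1, Meox2, Tcf15 and Scx lie above the median on all arrays, and Cdx4 and Uncx below the 25th percentile on all.

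**Figure D2:**
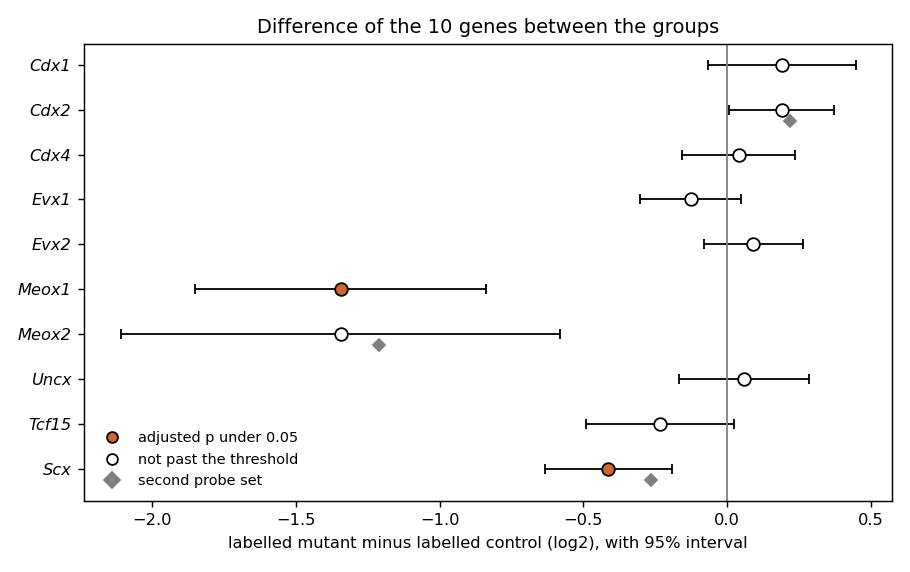
Difference between the groups for each gene (log2, labelled mutant minus labelled control), with the 95% interval from limma's moderated standard error; filled circles passed an adjusted p of 0.05, and grey diamonds are second probe sets. Only Meox1 (-1.34) and Scx (-0.41) are filled, and the interval of Meox2 reaches from -2.11 to -0.58.

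The caudal genes gave low signals in both groups. Cdx4, an X-linked gene of the tail bud, read 3.26, 3.24 and 3.20 in the labelled-control and 3.35, 3.35 and 3.13 in the labelled-mutant arches. All 6 values lay below the 25th percentile and the groups overlapped, with a difference of 0.04 (95% interval -0.16 to 0.24; limma, adjusted p = 0.859). Cdx1, which acts in the tail bud and later in the intestine, read 4.22, 4.22 and 4.04 against 4.15, 4.56 and 4.35, below the 25th percentile on 4 of 6 arrays. Its groups also overlapped, and its difference of 0.19 (-0.06 to 0.45) did not pass (adjusted p = 0.414). Cdx2, which acts in the trophoblast, tail bud and gut, read 4.65, 4.76 and 4.59 against 4.94, 4.82 and 4.82. All 3 labelled-mutant arches lay above the labelled-control ones, by a small margin. The difference was 0.19 (0.01 to 0.37), with an unadjusted limma p of 0.0435 and a Benjamini-Hochberg adjusted p of 0.250. The second probe set of Cdx2 differed by 0.22, from 4.23 ± 0.13 to 4.44 ± 0.07 (limma, adjusted p = 0.354 over all probe sets). Signals this close to the low end may hold mostly background, so that a small change in a minority of cells could be missed in these arrays.

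The even-skipped genes lie beside the Hox clusters, Evx1 next to Hoxa13 and Evx2 next to Hoxd13, and are used in the tail bud, the limb and spinal cord interneurons. Evx1 read 4.87, 4.76 and 4.93 in the labelled-control and 4.76, 4.74 and 4.70 in the labelled-mutant arches. These groups were just separated, by far less than their spread, and the difference of -0.13 (-0.30 to 0.05) did not pass (limma, adjusted p = 0.439). Evx2 read 5.71, 5.67 and 5.76 against 5.73, 5.87 and 5.81. Its groups overlapped, and the difference was 0.09 (-0.08 to 0.26; adjusted p = 0.583).

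The Hox genes next to them behaved in different ways. Hoxd13, the nearest protein-coding neighbour of Evx2 on the Hox side, fell by 4.42, from 9.09 ± 0.37 to 4.66 ± 0.17 (limma, adjusted p = 3.72e-06). Hoxa13, the corresponding neighbour of Evx1, read 4.61 ± 0.19 against 4.26 ± 0.11, a difference of -0.35 that did not pass (adjusted p = 0.127). Its labelled-control values, 4.46 to 4.82, were already near the 25th percentile, which left less room for a fall than in Hoxd13. A fall from such a level could still pass, as in Hoxb5 (4.82 ± 0.23 against 4.17 ± 0.15; limma, adjusted p = 0.0221). Further into the HoxA cluster, Hoxa11, Hoxa10 and Hoxa9 fell by 3.40, 6.71 and 7.07. With the mean of each gene's probe sets, Hoxd13, Hoxa10 and Hoxa9 had smaller differences of -2.35, -3.74 and -4.29, which still passed. On the far side, the neighbours were Hibadh for Evx1 and Lnpk for Evx2. Over the Hox genes of groups 9 to 13, 11 of 14 measured fell and 0 rose (median -1.75), and over groups 1 to 8, 11 of 19 fell and 0 rose (median -0.65), where 4.30% of all genes fell. The high Hox levels were thus those of the labelled-control arches, and their relation to the Cdx genes was not tested.

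**Figure D3:**
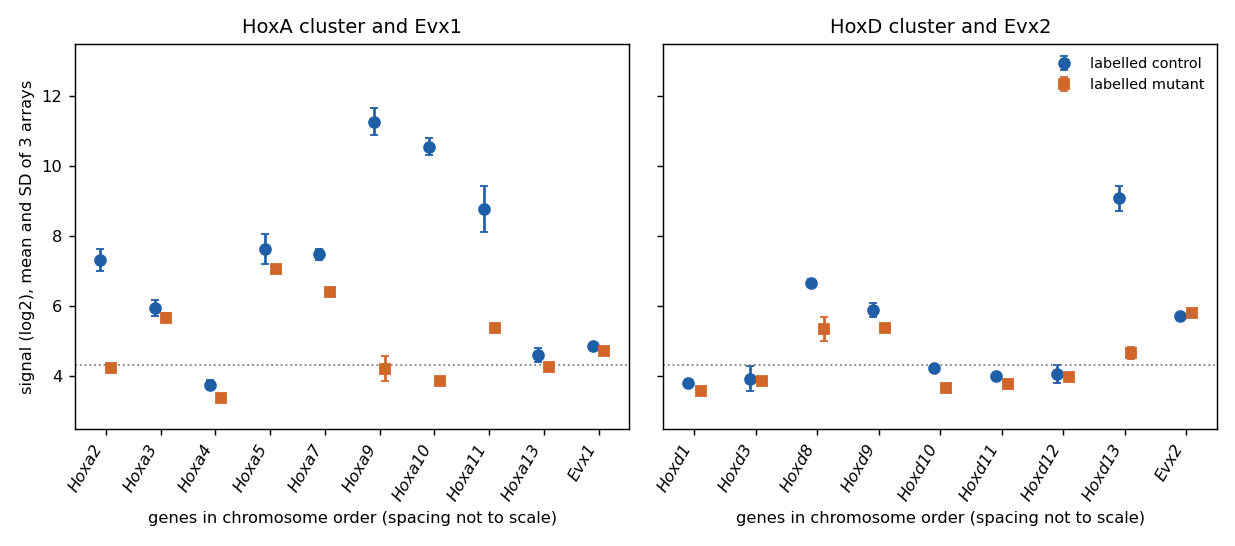
Mean signal (log2, bars are SD of 3 arrays) of the measured HoxA and HoxD genes and of Evx1 and Evx2, ordered as on the chromosome with equal spacing; blue circles are labelled control, orange squares labelled mutant, and the dotted line is the 25th percentile. Hoxa9, Hoxa10, Hoxa11 and Hoxd13 stand far apart between the groups, whereas the symbols of Evx1 and Evx2 lie 0.13 and 0.09 apart.

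To show the regulatory sequence of genes from the 3 homeobox families, the 250 bases before the transcript start were taken from RefSeq (build GRCm38.p6), 1 gene per family. Meox2, whose difference did not pass, stands for the Meox genes. Evx1 stands for the Hox neighbours without a passing difference, and Cdx2 for the caudal genes. Capitals mark TAAT on either strand (ATTA where it lies on the other), the core that many homeodomain proteins bind. Cdx2 is chr5:147307250-147307499 on the minus strand, Evx1 is chr6:52313248-52313497 on the plus strand and Meox2 is chr12:37108290-37108539 on the plus strand, each 5′ to 3′. The Evx1 window lies within the antisense RNA gene Evx1os.
Cdx2: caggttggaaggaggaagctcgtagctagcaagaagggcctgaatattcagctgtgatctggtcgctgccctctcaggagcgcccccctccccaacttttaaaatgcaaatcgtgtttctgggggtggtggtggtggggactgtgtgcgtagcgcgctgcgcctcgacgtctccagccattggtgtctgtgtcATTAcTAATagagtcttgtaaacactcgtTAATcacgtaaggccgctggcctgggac
Evx1: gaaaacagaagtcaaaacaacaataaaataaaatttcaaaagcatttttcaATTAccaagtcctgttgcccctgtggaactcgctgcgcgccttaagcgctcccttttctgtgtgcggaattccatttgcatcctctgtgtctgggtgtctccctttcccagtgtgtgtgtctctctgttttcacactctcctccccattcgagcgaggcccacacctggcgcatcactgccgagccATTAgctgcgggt
Meox2: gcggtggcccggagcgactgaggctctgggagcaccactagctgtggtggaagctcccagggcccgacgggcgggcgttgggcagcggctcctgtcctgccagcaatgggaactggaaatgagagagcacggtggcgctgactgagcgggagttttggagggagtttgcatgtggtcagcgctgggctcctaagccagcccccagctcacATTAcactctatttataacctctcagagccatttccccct
The core was found at 3 places for Cdx2, 2 for Evx1 and 1 for Meox2, and 54.9% of the 32817 windows in the table held it at least once. CG dinucleotides, which are dense at many promoters that PRC2 binds, numbered 13, 10 and 12 in these windows, against a median of 6 over all windows. Of all windows, 70.7%, 64.5% and 68.5% held as many or fewer, so that these counts were not unusual. Windows were matched for 6 of the 10 genes, the others being Uncx with 20 CG dinucleotides, Evx2 with 14 and Cdx4 with 5. No window was found for Cdx1 and Tcf15, nor for Meox1 and Scx, the genes that passed. These are counts of letters and show no binding.

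The Meox genes had the largest differences among the 10. Meox1, needed for sclerotome development, read 8.26, 8.23 and 7.44 in the labelled-control and 6.93, 6.50 and 6.47 in the labelled-mutant arches. Its groups did not overlap, although the third labelled-control arch lay nearer to the labelled-mutant ones than the others did. It fell by 1.34 (95% interval -1.85 to -0.84; limma, adjusted p = 0.0103). Without labelled-control array 2 (difference -1.22, adjusted p = 0.0547) or labelled-mutant array 3 (-1.26, 0.0514) it missed the threshold, as it did when every array was floored at its 20th percentile (0.101).

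Meox2, which acts in limb muscle and in vessels, read 8.09, 8.43 and 7.89 in the labelled-control and 7.64, 6.10 and 6.63 in the labelled-mutant arches. Labelled-mutant array 1 lay just below the labelled-control range, and the other arches were lower by a further 1 unit or more. The difference of -1.34 (-2.11 to -0.58) was not past the threshold (limma, adjusted p = 0.0583). Without labelled-mutant array 1 it was -1.77 and passed (adjusted p = 0.0025). The second probe set of Meox2 read 7.13, 7.48 and 7.06 against 6.70, 5.67 and 5.66, with the same arch highest in the labelled-mutant group. It differed by -1.21 (limma, adjusted p = 0.0762 over all probe sets).

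Uncx, the third homeobox gene of the somite, was dim throughout. It read 3.47, 3.61 and 3.45 against 3.40, 3.72 and 3.58, below the 25th percentile on all 6 arrays. Its groups overlapped and its difference was 0.06 (-0.17 to 0.29; limma, adjusted p = 0.813). At this signal a small difference could be missed. Hoxa4, also below the 25th percentile on all 6 arrays, did pass (-0.37; limma, adjusted p = 0.0458).

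Genes with the most similar profile over the 6 arrays were found by the root mean square difference after each gene was centred on its own mean. For Meox1 these were Tmtc1 (0.18), Zfp503 (0.20) and Ebf2 (0.22). In each of them labelled-control array 3 was the lowest of its group, as in Meox1. For Meox2 they were the smooth muscle actin gene Acta2 (0.13), Pgm5 (0.18) and the matrix gene Postn (0.19). The differences of these 6 genes between the groups ran from -1.12 for Tmtc1 to -1.73 for Ebf2, and these and the order of the arrays follow from the choice by profile. In Acta2 the labelled-mutant arches read 9.48, 8.08 and 8.35, and in Postn 10.15, 8.93 and 9.61.

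Several skeletal muscle markers were also lower in the labelled-mutant arches. Of 10 markers 5 fell and 0 rose, with a median difference of -1.06, among them the muscle regulators Myog (-2.25) and Myod1 (-1.03). Their summed level was 10.73 to 11.34 in the labelled-control and 9.32 to 10.44 in the labelled-mutant arches, with array 1 highest and array 2 lowest among the latter, as in Meox2. In Meox1 labelled-mutant array 1 was also the highest, with arrays 2 and 3 close together at 6.50 and 6.47. Among the labelled-control arches array 1 had the lowest muscle sum (10.73) and the highest Meox1 (8.26). The lowest labelled-control Meox2 was that of array 3 (7.89), where the muscle sum was 11.20. Actc1, a cardiac and embryonic muscle actin, read 8.59, 6.68 and 7.43 in the 3 labelled-mutant arches. Tnnt1, a troponin gene, read 8.80, 7.61 and 8.13 there and did not pass (limma, adjusted p = 0.0651). Of the 10 markers, 6 had array 1 highest and array 2 lowest among these arches and 4 had another order, with Myh3 at 5.98, 5.45 and 5.08 and Myf6 at 4.11, 3.95 and 4.25. The count of muscle markers past the threshold was 0 without labelled-control array 2, 1 without labelled-control array 3 and 1 each without labelled-mutant arrays 2 and 3. Whole arches were measured, in which fewer cells of a type and less RNA per cell cannot be told apart. The part of muscle content in the Meox differences was not tested.

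**Figure D4:**
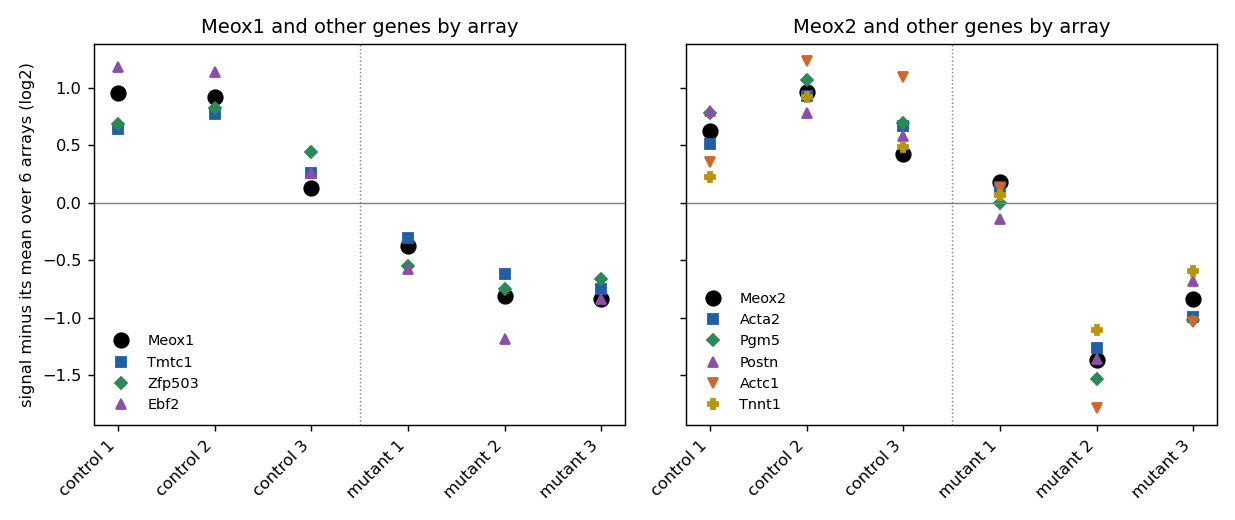
Signal minus each gene's mean over the 6 arrays (log2) for Meox1 and Meox2 (large black circles) beside the 3 genes with the most similar profile each and, for Meox2, the muscle genes Actc1 and Tnnt1; 1 position per array. In the right panel labelled-mutant array 1 lies near 0 for every gene drawn, and array 2 is the lowest. This follows from the choice of genes, since the similar genes were picked by profile and the muscle genes once their values were known. Of the 10 muscle markers, 4 had another order and are not drawn.

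Of the helix-loop-helix genes, Tcf15 was far above the array median and the brighter probe set of Scx slightly so. Tcf15 (also called paraxis), the factor for somite epithelium, which is also made in some endothelial cells, read 8.94, 8.88 and 8.55 in the labelled-control and 8.47, 8.63 and 8.56 in the labelled-mutant arches. The groups overlapped, and the difference of -0.23 (-0.49 to 0.02) did not pass (limma, adjusted p = 0.317). None of 8 endothelial markers passed with limma either (median -0.04), and 0 did at an unadjusted p of 0.05.

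Scx, the tendon regulator, read 6.61, 6.59 and 6.58 in the labelled-control and 6.38, 6.05 and 6.12 in the labelled-mutant arches. The labelled-control arches were nearly equal and all lay above the others. Scx fell by 0.41 (-0.63 to -0.19; limma, adjusted p = 0.0449). The call is close to the threshold and was kept in 3 of 12 alternatives, with adjusted p from 0.0166 to 0.185. The second probe set read 5.64, 5.89 and 5.38 against 5.32, 5.39 and 5.42. There the groups overlapped, 5 of 6 values lay below the array median, and the difference was -0.26 (limma, adjusted p = 0.412 over all probe sets). Scx lies within the gene Bop1, whose signal was 8.60 ± 0.07 against 8.77 ± 0.06 and so was not lower in the labelled-mutant arches. Spock3, Cntn4 and Tle4 had profiles most similar to Scx (root mean square differences 0.03 each), of which Spock3 and Cntn4 had all signals below the 25th percentile.

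Other tendon genes were lower alongside Scx. Of 12 listed, 4 fell and 0 rose, with a median difference of -0.54. The matrix genes Tnc and Col14a1 fell by 2.23 and 1.56, from 9.13 ± 0.32 to 6.91 ± 0.71 and from 6.42 ± 0.20 to 4.86 ± 0.10 (limma, adjusted p = 0.0052 and 1.45e-04). Thbs2, a thrombospondin gene, fell by 0.74 and the lectin gene Chodl by 1.14. Most of these genes are also made by other connective tissue. Tnmd, a gene of mature tendon, was below the 25th percentile on all 6 arrays, and Mkx, another tendon regulator, differed by -0.11 and did not pass.

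Of the other genes of tail bud and presomitic mesoderm, 13 of 14 were measured, 1 fell and 0 rose, with a median of 0.04. The one that fell was Rspo3, a Wnt agonist also made in other mesenchyme, at 9.23 ± 0.39 against 7.63 ± 0.29. Tbx6, which defines presomitic mesoderm, read 3.81 to 3.97 over the 6 arrays, all below the 25th percentile, and its groups overlapped. The presomitic genes Msgn1 and Hes7 read 5.64 to 5.92 and 6.24 to 6.53 over both groups, near the array median, with differences of 0.04 and 0.12. Fgf8, a growth factor gene of both tail bud and arch epithelium, read 6.01, 5.86 and 6.81 against 6.94, 7.44 and 7.17. It did not pass (difference 0.96; limma, adjusted p = 0.0546) except without labelled-control array 3 (1.25, 0.0042).

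Several genes of the somite compartments fell. Of 20 measured, 7 fell and 0 rose (median -0.23), a share of 35% against 5.53% of all genes. They were Zic1 (-7.22), Dmrt2 (-4.30), Tbx15 (-3.18), Tbx18 (-2.86), Pax1 (-2.10), Aldh1a2 (-1.40) and Pax7 (-0.97). Dmrt2 and Pax7 act in the dermomyotome, Pax1 in the sclerotome and pharyngeal pouches, and Tbx18 in the anterior part of the somite, opposite to Uncx. Zic1, Tbx15, Tbx18 and Aldh1a2 are also used in other tissues, among them head mesenchyme, and the list is therefore not specific to somites. Pax1 read 7.09, 7.37 and 7.19 in the labelled-control and 5.25, 5.10 and 5.01 in the labelled-mutant arches, with groups far apart. Dmrt2 read 8.31, 8.97 and 8.95 against 4.92, 3.92 and 4.51. The segmentation genes did not pass: Mesp2 differed by 0.12, Lfng by -0.11, Dll3 by -0.12 and Dll1 by -0.34, and Ripply2 read 2.74 to 3.01 over all arrays.

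The regulators of neighbouring tissues, listed to look for included trunk or limb, were mixed. Of 12 genes of limb bud and lateral plate, 3 fell and 1 rose (median -0.07). Pitx1 (10.22 ± 0.24 against 10.15 ± 0.12) and Tbx2 (9.91 ± 0.23 against 10.10 ± 0.11) were bright in both groups, whereas Fgf10 was below the array median on all 6 arrays. The list is therefore not specific to limb, and its counts cannot show whether limb or trunk was included. The forelimb gene Tbx5 fell by 1.20. Tbx4, which acts in the hindlimb and elsewhere (-1.52), and the BMP antagonist gene Grem1 (-2.17) fell too, while Hand1 rose by 0.44. Of 7 genes of intermediate mesoderm 1 fell, Sall1 (-1.55), and 0 rose. Of 16 spinal cord genes 1 fell and 0 rose (median 0.08), and 5 of them, among them the motor neuron gene Olig2 at 2.90 to 3.26, were below the 25th percentile on every array. The one that fell, Nkx6-1, changed by -0.54 (limma, adjusted p = 0.0248) and missed the threshold without any 1 of 5 arrays. With the mean of its probe sets Pax6 also passed, at -0.49 (limma, adjusted p = 0.0097), so that 2 of the 16 fell. Head mesoderm genes were lower in the same arches, with 5 of 7 past the threshold and a median of -0.70, including Tbx1 (-0.72), Msc (-0.70) and Lhx2 (-1.20). With the mean of probe sets 3 of the head mesoderm genes passed, and with floored signals 0 did.

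**Figure D5:**
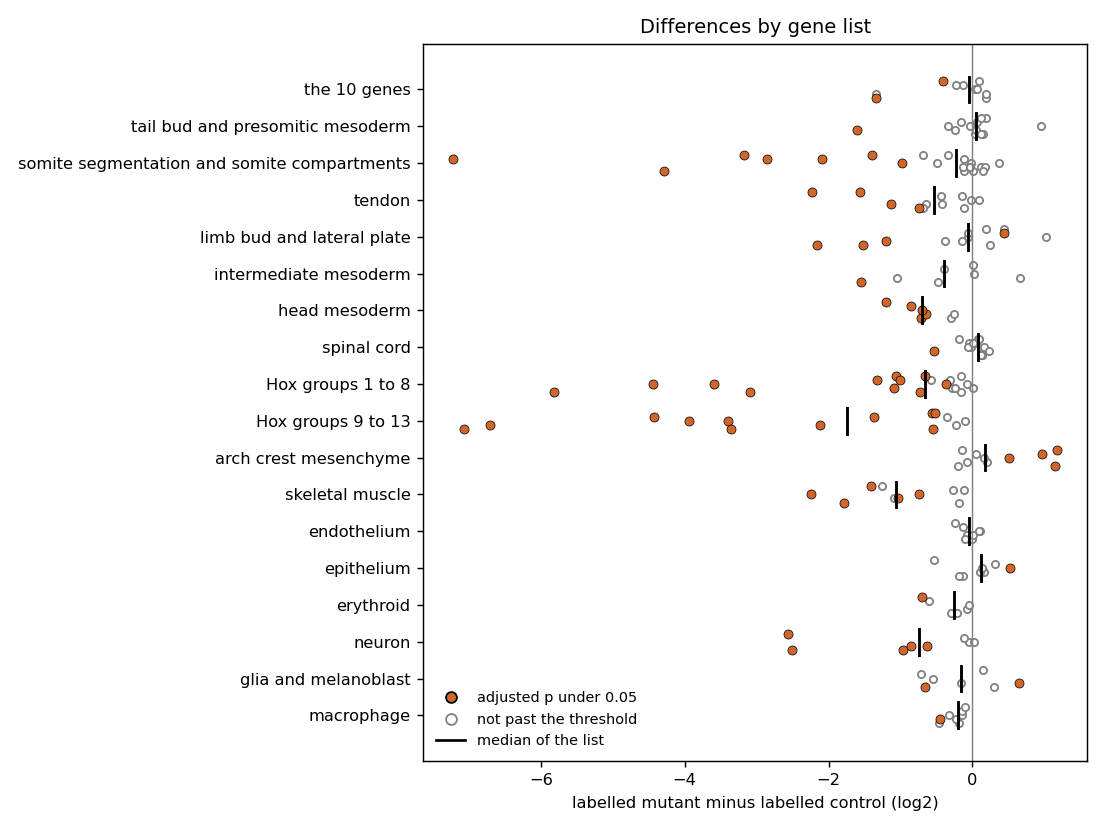
Difference between the groups (log2, labelled mutant minus labelled control) for each measured gene of the lists named on the left; 1 point per gene, filled where the adjusted p was under 0.05, with a black line at the list's median. The 10 genes lie around their median of -0.04 with 2 filled, whereas Hox groups 9 to 13 reach -7.07.

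Of the markers of other cell types, those of neurons were lower in the labelled-mutant arches (5 of 8 fell, 0 rose; summed level 11.19 to 11.50 against 9.96 to 10.26), and 4 of 10 crest mesenchyme markers rose (13.79 to 14.03 against 14.12 to 14.27). Dlx5 rose by 1.18 and Nefl fell by 2.56. Isl1 (-0.85) is counted among both the neuron and the head mesoderm genes that fell. With the mean of its probe sets Isl1 differed by -0.47 and did not pass (limma, adjusted p = 0.0608). Of 8 epithelial markers 1 rose, of 8 macrophage markers 1 fell, of 6 erythroid markers 1 fell, and of 7 glial and melanoblast markers 1 fell and 1 rose. Their part in the differences of the 10 regulators was not tested.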

How the data were processed

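The deposited table holds 1 log2 signal per probe set for each of 6 one-colour arrays, as processed by the authors. The scale and the common distribution of the arrays were read from the values. Background correction, summary method, software and genome build were not given in the sources at hand. A shift common to all genes is invisible under 1 shared distribution, and precision is limited by the number of arrays. Probe sets were named by the platform annotation of 2016 (34958 with 1 symbol, 932 with several, 9211 with none, only the first used). Labels call the arrays biological replicates and give 1 arch per embryo.

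Differences were fitted with limma 3.58.1 in R 4.3.3 (lmFit, eBayes, no covariate, two-sided, Benjamini-Hochberg adjustment over 18194 genes, threshold 0.05; probe sets over all 45101). The procedure was also run on simulated data without sex or array effects. All changes planted there were larger than that of Scx, so that the run does not cover calls of that size. No filter was applied; a filter on mean signal at the 25th percentile would keep 7 of the 10 genes. Named besides the 10 regulators are genes of the lists, the profile neighbours and genes that check the labels. The list genes were not named by a single rule. Some are among the 3 of largest absolute moderated t in their list, not all of which are named, and others are examples of a list's range. Bop1, Hibadh, Lnpk and the muscle examples were added once their values were known. The members and lists were chosen with earlier results of these data known. RefSeq gene positions served only to tell neighbours.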

Additional observations from a re-analysis of the deposited data

How the results depend on the processing

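Of the 10 regulators, Cdx1, Cdx2, Cdx4, Evx1, Evx2, Uncx and Tcf15 passed in none of the 12 alternatives (11 for Cdx1, Cdx4 and Uncx, which the filter on dim genes removed). All kept the sign of their difference except Uncx, whose difference near 0 turned negative in 1. Meox1 passed in 9 of 12, Scx in 3 and Meox2 in 1. With the replicate block 1 regulator fell (Scx missed at -0.41, limma adjusted p = 0.0852), and 112 genes rose. The replicate numbers did not pair the arches, since deviations from the group means correlated at -0.21, -0.12 and -0.07. With floored signals 0 regulators fell (Meox1 -1.34, Scx -0.41), 99 genes rose and 230 fell. Fewer fell with the mean of probe sets (1 regulator; Scx -0.34) and with trend and robust (1 regulator; Scx -0.41). Median centring and leaving out dim genes changed no regulator's call. When each array was left out in turn, 63 to 244 genes rose and 372 to 777 fell, and 0 to 3 regulators fell. The differences then were -1.61 to -1.20 for Meox1, -1.77 to -0.999 for Meox2 and -0.51 to -0.35 for Scx. Among genes of the other lists, Pax6 had a difference of -0.49 with the mean of its probe sets, against 0.16, and passed (limma adjusted p = 0.0097). Pax1 and Col14a1 had smaller differences with the mean of their probe sets, -1.21 and -0.60, and still passed. The same held for Tbx4 (-0.87), Tbx5 (-0.62), Rspo3 (-0.94) and Sall1 (-0.80), whereas Isl1 (-0.47) no longer passed. Of 30 list genes retested, 13 changed their call or direction in at least 1 alternative, and the number of muscle markers past the threshold ran from 0 to 6. The causes were not tested. Low signals limit Cdx1, Cdx4 and Uncx most.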
